A study of Mus musculus with 18 samples.

Results

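The B4 and ID families of short interspersed elements (SINEs) were examined copy by copy in the rRNA-depleted RNA-seq of Atrx WT and Atrx KO mesenchymal progenitor cells. Members were every row of the deposited count table whose name gives B4 or ID as the repeat family, which yielded 461773 of 3725827 transposable element (TE) loci, or 12.4%. The B4 family holds 397726 of these loci in 4 subfamilies, with 64020 B4, 107073 B4A, 110827 ID_B1 and 115806 RSINE1 loci. The ID family holds 64047 loci, namely 8022 ID, 5671 ID2, 23970 ID4 and 26384 ID4_ loci. No measured value entered this rule, but it was set with earlier results of these data known.

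SINEs are short retrotransposons that encode no protein and borrow the reverse transcriptase of LINE-1 elements to copy themselves. Their own promoter lies inside the element, where the A box and the B box bind the RNA polymerase III factor TFIIIC. ID elements descend from BC1 RNA, a small neuronal RNA of tRNA origin, and B4 elements read as a fusion of ID-like and B1-like sequence. Most SINE copies in the mouse genome lie in or near genes, and reads over such a copy can come from a longer RNA polymerase II transcript that contains it. ATRX is a chromatin remodeler that helps to keep H3K9me3 heterochromatin, including at retrotransposons, and deposits histone H3.3 together with DAXX.

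The 9 libraries came from C3H/10T1/2 cells, a mouse mesenchymal progenitor line, grown without differentiation cues. WT was an isogenic line that received the Cas9 vector without an sgRNA, sg5 was the KO clone G7 and sg6 the KO clone B10, each with 3 libraries. Each group is therefore a single line, anything else that sets a KO line apart from WT enters the contrast with it, and p-values measure only the spread between libraries, which may be technical because the labels do not say that replicates were separate cultures. Both clones were compared with the same 3 WT libraries, so their contrasts share those libraries.

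Library totals ran from 20135336 to 33187136 counts. TE loci took 10.4% to 12.3% of the counts in 8 libraries and 15.5% in WT replicate 3, so the B4 and ID sums, the ratios and the locus calls are also given without it. Within sg5 and within sg6, replicate 1 stood apart from the others, with a chi-square per feature of 23.1 and 24.2 in sg5 and of 12.9 or more in sg6, against 8.29 and 7.92 between replicates 2 and 3, and no libraries were identical. Atrx, the targeted gene, had 215 ± 20.2 CPM in WT (CPM, counts scaled to the TMM-adjusted library total, mean ± SD, n = 3), 82.1 ± 26.4 CPM in sg5 and 86.6 ± 12.7 CPM in sg6, and every KO library lay below every WT library. Its log2 fold change was −1.39 (SE 0.21) in sg5 and −1.31 (SE 0.20) in sg6, with adjusted p of 0.00138 and 0.00227 by edgeR's quasi-likelihood test. Of 10 mesenchymal markers, 8 exceeded 1 CPM in every library, Nt5e and Thy1 being the exceptions, and markers of blood, epithelium, endothelium and neurons stayed at or below 0.263 CPM. Thy1, a surface marker, averaged 0.31 CPM in WT, 0.10 CPM in sg5 and 28.1 CPM in sg6, and the part of such line differences in the results below was not tested.

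The sequence of Bc1 is shown because it is the source RNA of the ID family and carries both promoter boxes. Bc1 lies on chromosome 7 of GRCm38 at chr7:144914470-144914637 on the plus strand, where the GENCODE annotation gives it as a lincRNA of 168 nt with 1 exon. Capitals mark the letters of the A box, GCNNANNGG, at bases 16 to 24 and of the B box, GTTCGNNNC, at bases 58 to 66, counted from 1 at the 5′ end. Both patterns were written to match Bc1, and they do not overlap.

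Bc1: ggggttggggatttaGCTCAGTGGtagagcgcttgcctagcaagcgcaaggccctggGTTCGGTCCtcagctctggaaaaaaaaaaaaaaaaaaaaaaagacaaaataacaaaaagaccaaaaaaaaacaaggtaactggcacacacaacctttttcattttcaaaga

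Among 32851 RefSeq promoters of 300 bases each, searched on both strands, 48.13% held the A box letters, 4.508% the B box letters and 2.712% both. The 9-letter A box pattern is thus common by itself. Bc1 is listed among the genes of the table and had 0 reads in all 9 libraries, where a count of 0 allows up to 3 reads per library. The locus rows carry a copy number and no coordinates, so the sequence and the host gene of a given copy are not shown here.

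Most of the B4 and ID copies were not read at all. At least 1 read fell on 142321 loci (30.8%) over the 9 libraries, and between 52237 and 81311 loci had a read in a given library. A read in every library was seen at 13587 loci, and 10 or more reads in every library at 898. The share of loci with a read ran from 25.8% in the B4 subfamily to 35.5% in ID4_. Together B4 and ID loci took 7.59% to 8.62% of the TE counts of a library. The low-count filter kept 5903 loci (1.28%), which hold 37.5% of the B4 and ID reads, so results for single copies speak only for the more highly read loci. The kept loci comprised 1588 RSINE1, 1470 ID_B1, 1371 B4A, 681 B4, 331 ID4, 330 ID4_, 69 ID2 and 63 ID loci. Reads were spread over many copies, since 11087 loci held 50% of them and the 10 highest loci held 2.00%. The small ID and ID2 subfamilies were more concentrated, with 19.0% and 18.4% of their reads in 10 loci each.

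Summed over every copy, neither family changed in the KO clones beyond the spread of the libraries. B4 family RNA was 9089 ± 1767 CPM in WT, 7929 ± 588 CPM in sg5 and 8151 ± 261 CPM in sg6 (SD, n = 3). In single libraries it was 7464, 8833 and 10971 CPM in WT, 7970, 7321 and 8495 CPM in sg5, and 7857, 8243 and 8355 CPM in sg6. WT held both the highest value, in replicate 3, and a value below 5 of the 6 KO libraries, in replicate 1, so the groups overlapped. The log2 fold change was −0.20 (SE 0.15, 95% interval −0.49 to 0.09, adjusted p = 0.379) in sg5 and −0.16 (SE 0.15, −0.45 to 0.13, adjusted p = 0.549) in sg6 by edgeR. In bulk libraries, fewer cells that make an RNA and less of it per cell cannot be told apart.

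ID family RNA behaved alike. WT libraries had 1240, 1451 and 1795 CPM, sg5 libraries 1314, 1243 and 1420 CPM, and sg6 libraries 1304, 1368 and 1408 CPM, so that all KO values lay within the WT range. The log2 fold change was −0.17 (SE 0.14, 95% interval −0.45 to 0.10, adjusted p = 0.415) in sg5 and −0.14 (SE 0.14, −0.41 to 0.14, adjusted p = 0.588) in sg6. Of the family sums and genes tested together, 18.4% passed in sg5, 12.5% in sg6 and 2% between the clones, and neither B4 nor ID was among them. Without WT replicate 3 the B4 values were −0.04 in sg5 and −0.00087 in sg6, and the ID values −0.02 and 0.01. Without WT replicate 1 the B4 values were −0.32 and −0.28 and the ID values −0.29 and −0.25 (adjusted p 0.160 to 0.283), so the size of the difference depended on single WT libraries.

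None of the 8 subfamilies passed the test in sg5, in sg6 or between the clones, where 16.8%, 11.5% and 1.94% of all genes and subfamily sums did. An unadjusted p below 0.05 was reached by 0 of 8 in each comparison, and DESeq2 also called 0. In sg5 the 8 log2 fold changes ran from −0.20 for B4A to −0.08 for ID2 (SE 0.12 to 0.15, adjusted p 0.362 to 0.689), and in sg6 from −0.16 for B4A to −0.10 for ID2 (adjusted p 0.524 to 0.667). The 95% intervals over both clones reached from −0.49 to 0.17. All 8 values were negative in each clone, and every subfamily overlapped between clone and WT. WT replicate 3 was the highest library in all 8 subfamilies, and without it the values ran from −0.05 to 0.05 in sg5, with 7 negative, and from −0.01 to 0.03 in sg6, with 2 negative.

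The single libraries of the subfamilies showed the same arrangement. RSINE1, the subfamily with the most reads, had 2420, 2808 and 3424 CPM in WT, 2542, 2359 and 2688 CPM in sg5, and 2521, 2664 and 2668 CPM in sg6. ID_B1, whose name joins ID and B1, had 2371, 2679 and 3232 CPM in WT, 2553, 2352 and 2590 CPM in sg5, and 2472, 2550 and 2544 CPM in sg6. In both, the WT range held 5 of the 6 KO values. B4A averaged 2207 ± 444 CPM in WT, 1925 ± 155 CPM in sg5 and 1981 ± 77.3 CPM in sg6, and B4 1155 ± 225, 1013 ± 77.7 and 1046 ± 17.3 CPM. In the ID family, ID4_ averaged 626 ± 112, 556 ± 35.3 and 579 ± 18.7 CPM, ID4 569 ± 98.8, 511 ± 26.7 and 520 ± 21.7 CPM, ID 151 ± 22.8, 137 ± 5.57 and 137 ± 6.78 CPM, and ID2 136 ± 21.5, 128 ± 9.95 and 127 ± 3.83 CPM. The SD was largest in WT for each of the 8.

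**Figure D1:**
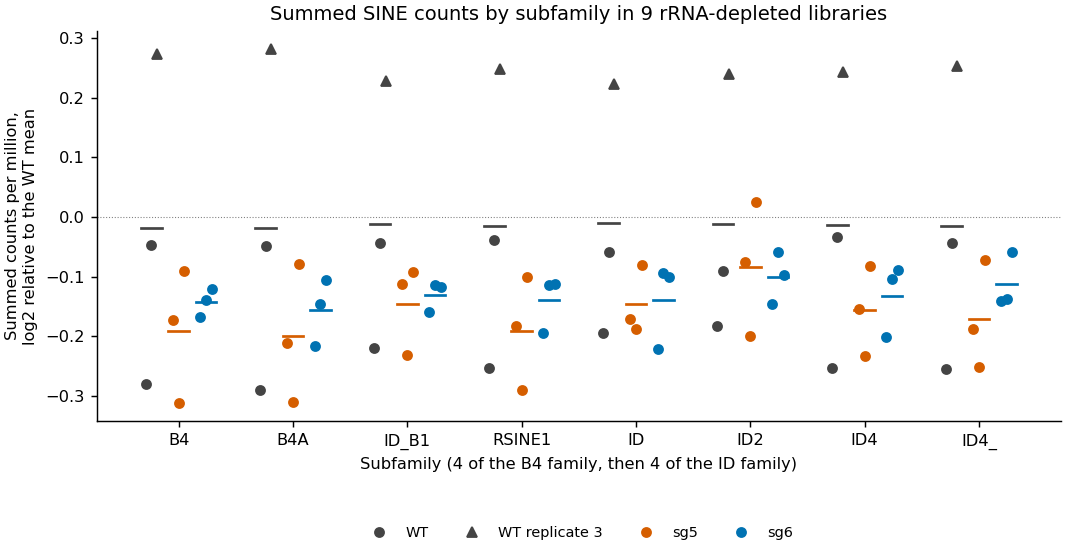
Summed CPM of the 8 B4 and ID subfamilies in the 9 libraries, as log2 relative to the WT mean on the y axis, with 1 point per library, short lines for the group means of the log2 values and a triangle for WT replicate 3. WT replicate 3 is the highest library in every subfamily, and the sg5 and sg6 points lie mostly among those of the other WT libraries.

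The other SINE families had values of similar size, with adjusted p of 0.256 to 0.677 by edgeR. B1, listed as the Alu family, had a log2 fold change of −0.22 in sg5 and −0.17 in sg6, B2 −0.24 and −0.18, and MIR −0.09 and −0.14. Because a ratio within a library is free of library scaling, the counts of B4 and ID were also divided by those of B1. B4 reads per B1 read were 0.563, 0.577 and 0.593 in WT, 0.578, 0.593 and 0.594 in sg5, and 0.583, 0.575 and 0.593 in sg6. ID reads per B1 read were 0.0935, 0.0949 and 0.0970 in WT, 0.0954, 0.101 and 0.0993 in sg5, and 0.0967, 0.0953 and 0.0998 in sg6. The ranges overlapped in each case. The log2 ratio of B4 to B1 was higher by 0.03 in sg5 (two-sided exact permutation p = 0.2, adjusted p = 0.4) and by 0.01 in sg6 (exact permutation p = 0.7, adjusted p = 0.7). That of ID to B1 was higher by 0.05 in sg5 (exact permutation p = 0.2, adjusted p = 0.4) and by 0.03 in sg6 (exact permutation p = 0.3, adjusted p = 0.4), with adjustment over these 4 tests. Without WT replicate 3, the log2 ratios were higher by 0.05 and 0.03 for B4 and by 0.06 and 0.05 for ID in sg5 and sg6. With 3 libraries against 3, the smallest p that this test can give is 0.1.

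**Figure D2:**
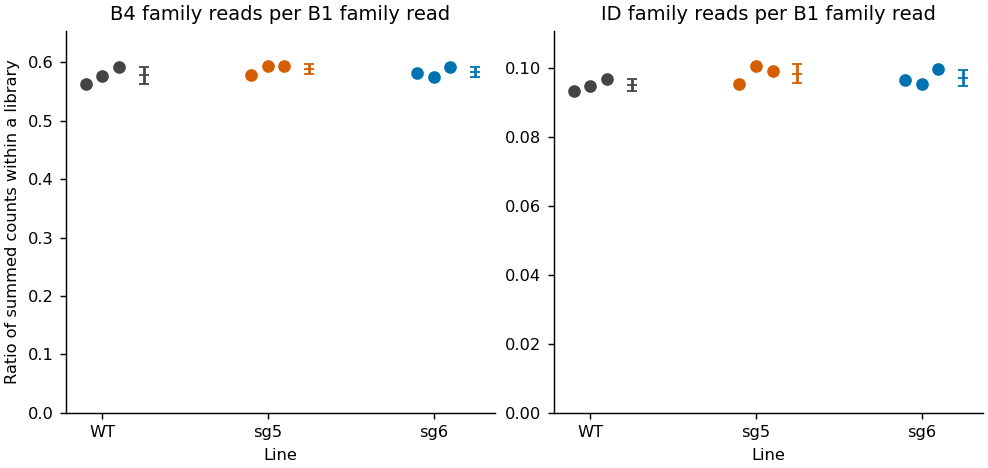
Ratio of summed B4 family counts (left) and ID family counts (right) to B1 family counts within each library on the y axis, by line on the x axis, with 1 point per library and bars for mean ± SD (n = 3). The ratios lie between 0.563 and 0.594 for B4 and between 0.0935 and 0.101 for ID, with overlapping lines.

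At single loci, a small number of B4 and ID copies differed in each clone. In sg5, 36 loci rose and 22 fell at an adjusted p below 0.05, which is 0.610% and 0.373% of the 5903 loci tested, beside 1.82% and 2.06% of all genes and TE loci tested. In sg6, 15 loci rose and 12 fell, or 0.254% and 0.203%, beside 1.18% and 1.72% of all features. All TE loci, of which 42783 were tested, passed at 0.638% higher and 1.11% lower in sg5 and at 0.439% and 0.996% in sg6. The median log2 fold change of the B4 and ID loci was −0.10 in sg5 and −0.06 in sg6, against −0.06 and −0.04 for all features and −0.12 and −0.08 for all TE loci. With TMM factors from genes alone, the split in sg5 was 26 higher and 25 lower.

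The counts in sg5 changed when 1 library was left out. Such a fit also has a smaller group, so reliance on a given library and the loss of a library cannot be told apart here. Higher loci numbered 20, 14 and 15 in the fits without WT replicate 1, 2 and 3, of which 15, 12 and 11 were among the 36, and 15 and 19 without sg5 replicate 2 and 3. Lower loci numbered 8 and 11 without WT replicate 2 and 3, and 14 without sg5 replicate 2 or 3. In sg6, higher loci numbered 6, 9 and 6 without WT replicate 1, 2 and 3, and 8 without sg6 replicate 1 or 3, whereas lower loci numbered 6 without WT replicate 3, 5 without sg6 replicate 3 and 23 without sg5 replicate 1. With p-values adjusted over TE loci alone, 11 higher and 9 lower loci passed in sg5, and 6 and 6 in sg6.

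By subfamily, ID_B1 had 15 loci higher and 6 lower in sg5 and 7 and 3 in sg6, which is 1.02% and 0.408% and then 0.476% and 0.204% of its 1470 tested loci, all below the shares over all features. The higher shares in sg5 and sg6 were above the 0.638% and 0.439% of all TE loci, and the lower shares below their 1.11% and 0.996%. In other SINE families the higher shares were 0.310% and 0.119% for B1, 0.475% and 0.271% for B2, and 1.12% and 0.460% for MIR. RSINE1 had 7 and 5 in sg5 and 3 and 2 in sg6, B4A 5 and 8 and then 2 and 3, and B4 5 and 1 and then 2 and 1. The ID family had 4 loci higher and 2 lower in sg5, namely 2 and 1 ID, 1 and 0 ID2 and 1 and 1 ID4_ loci, and 1 higher and 3 lower in sg6. The share of loci called in at least 1 clone rose with the level of the locus, from 0.672% of 3571 loci below 0.5 CPM to 17.6% of 34 loci at 5 CPM or more. The share of all features at the same levels was not computed, so this rise is not a trait of B4 and ID copies. The tested loci had a median of 102 reads over 9 libraries, so a locus that missed the threshold is not shown to be level between the lines.

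**Figure D3:**
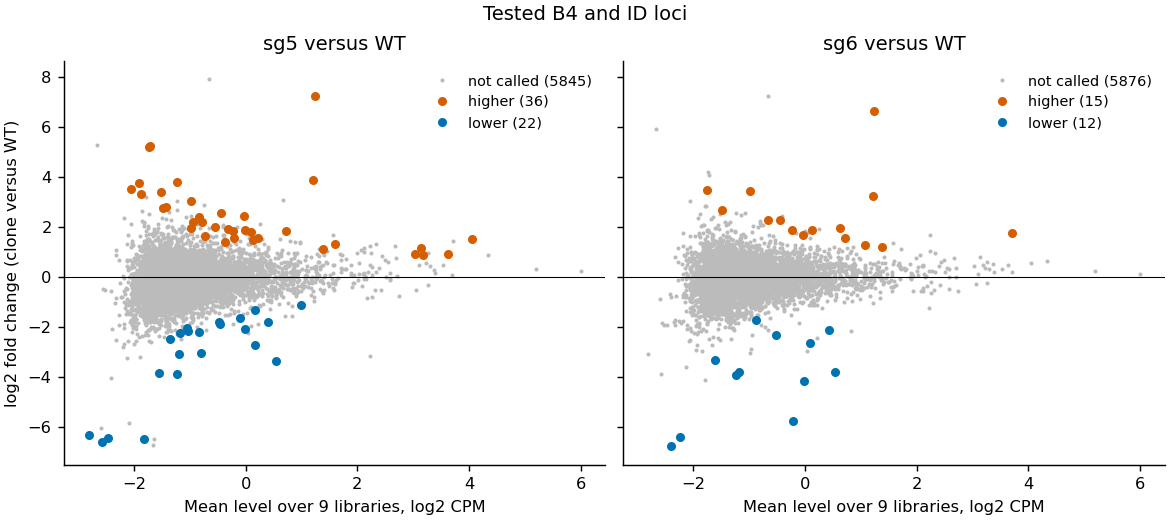
Log2 fold change in sg5 (left) and sg6 (right) versus WT on the y axis against the mean level over 9 libraries in log2 CPM on the x axis, with 1 point for each of the 5903 tested loci. In sg5, 36 loci are called higher and 22 lower, in sg6 15 and 12, and uncalled loci of low level spread as widely as many called ones.

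Every KO library lay above every WT library at 125 loci, which is 2.12% against 4.48% of all features. Every KO library lay below every WT library at 203 loci, which is 3.44% against 5.56% of all features. Both clones passed in the same direction at 10 loci higher and 4 lower, or 0.169% and 0.0678% of the loci, beside 0.729% and 1.16% of all features. None of the 71 loci called in at least 1 clone was called in opposite directions, with 44 called in sg5 alone and 13 in sg6 alone, which does not show that the clones differ at them. Of the 14 loci called in both clones, 13 belong to the B4 family, 8 of them ID_B1, and 1 to ID4_. The B4 family makes up 5110 of the 5903 tested loci, with 1470 of them ID_B1, and the ID family 793. Most calls would thus fall in the B4 family by its size, and the split does not set the families apart. In all 14, every KO library lay beyond every WT library. The rule for naming loci below also asked for this, so the lack of overlap at a named locus is no further support for its call. Without WT replicate 1, 2 and 3, 5, 6 and 4 loci were called higher in both clones, of which 3, 5 and 3 were among the 10. Without sg5 replicate 2, sg6 replicate 1 and sg6 replicate 3 they numbered 6, 6 and 4, of which 6, 5 and 3 were among the 10. Lower in both clones were 8 loci without sg5 replicate 1, of which 3 were among the 4, and 2 without sg5 replicate 3 or sg6 replicate 3, both of them among the 4.

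The highest fold was at ID_B1_dup93998, which was near silent in WT and which the low-count filter kept only through its KO reads. It had 1, 0 and 1 reads in WT, 118, 84 and 93 reads in sg5, and 110, 45 and 46 reads in sg6. The groups were far apart, and the ratio to WT was 181 in sg5 (95% exact interval of the counts 49.8 to 1505) and 118 in sg6 (32.4 to 985), intervals that cover counting error only. By edgeR the adjusted p was 2.32e-05 in sg5 and 5.84e-05 in sg6, and it stayed below 0.05 in all 9 fits that left out 1 library, in each clone. The copy with the next number, ID_B1_dup93999, was also called higher in both clones. It had 3, 2 and 1 reads in WT, 15, 15 and 12 reads in sg5, and 21, 15 and 23 reads in sg6, again without overlap. Its log2 fold change was 3.02 (SE 0.59, adjusted p = 0.00954) in sg5 and 3.43 (SE 0.57, adjusted p = 0.00379) in sg6, and in sg5 the adjusted p was 0.0663 without WT replicate 3.

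B4A_dup10224 also rose in both clones, with more reads behind the WT value, but the low-count filter again kept it only through its KO reads. It had 5, 6 and 13 reads in WT, 120, 62 and 107 reads in sg5, and 84, 53 and 51 reads in sg6, that is 0.267 ± 0.0819, 4.07 ± 0.585 and 2.61 ± 0.884 CPM (SD, n = 3). The lowest KO library was above the highest WT library, and the locus was 14.6-fold higher in sg5 (log2 fold change 3.87, SE 0.37, adjusted p = 4.07e-05) and 9.35-fold higher in sg6 (3.23, SE 0.37, adjusted p = 0.000162). Its calls also stayed in all 9 fits that left out 1 library. A second copy of the same subfamily, B4A_dup27887, was low throughout, with 2 reads in each WT library, 11, 13 and 10 in sg5, and 10, 10 and 15 in sg6. The groups did not overlap, and the log2 fold change was 2.75 (SE 0.62, adjusted p = 0.0232) in sg5 and 2.70 (SE 0.62, adjusted p = 0.030) in sg6. These calls were lost without WT replicate 2 or 3 or sg5 replicate 2 in sg5 (adjusted p 0.0788 to 0.105) and without any WT replicate, sg6 replicate 1 or sg6 replicate 3 in sg6 (0.0535 to 0.148).

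B4_dup16961 is the single locus of the B4 subfamily that was called in both clones. WT libraries had 6, 12 and 8 reads, sg5 libraries 24, 22 and 30, and sg6 libraries 36, 19 and 27, with no overlap in CPM. It was 3.54-fold higher in sg5 (adjusted p = 0.0264) and 3.68-fold higher in sg6 (adjusted p = 0.0254), and was no longer called without WT replicate 1 or 3, without sg5 replicate 2 or 3 in sg5 (adjusted p 0.0679 to 0.141), or without sg6 replicate 1 or 3 in sg6 (0.0792 to 0.160).

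A further 5 ID_B1 copies rose in both clones. ID_B1_dup20172 had 2, 8 and 6 reads in WT, 36, 14 and 29 in sg5, and 14, 26 and 27 in sg6. It was 5.83-fold higher in sg5 (adjusted p = 0.00718) and 4.85-fold in sg6 (adjusted p = 0.0182), with adjusted p of 0.0552 in sg5 without WT replicate 3 and 0.0764 to 0.116 in sg6 without WT replicate 1 or 3 or sg6 replicate 3. ID_B1_dup109324 had 7, 9 and 10 reads in WT, 48, 30 and 37 in sg5, and 34, 16 and 21 in sg6. It was 5.35-fold higher in sg5 (adjusted p = 0.00275), which held in all 9 fits without 1 library, and 3.21-fold in sg6 (adjusted p = 0.0377), which was lost (0.0516 to 0.196) without any 1 WT replicate, sg5 replicate 2, sg6 replicate 1 or sg6 replicate 3. ID_B1_dup100230 had 18, 16 and 22 reads in WT, 69, 40 and 56 in sg5, and 49, 28 and 61 in sg6. It was 3.55-fold higher in sg5 (adjusted p = 0.0108, and 0.0592 and 0.0716 without WT replicate 2 and 3) and 2.92-fold in sg6 (adjusted p = 0.0346, and 0.0707 to 0.184 without any 1 WT replicate, sg6 replicate 1 or sg6 replicate 3). ID_B1_dup53179 (1.49 in sg5 and 1.86 in sg6 on the log2 scale) and ID_B1_dup8057 (1.12 and 1.22) completed the 10. In all of these copies each KO library exceeded each WT library in CPM. Among the 10, only ID_B1_dup100230 and ID_B1_dup8057 had enough WT reads to pass the low-count filter by themselves. The other copies passed it only because of their KO reads, so their folds and calls carry that limit. Other settings also ended calls among the 8 copies given with adjusted p. With adjustment over TE loci alone, B4A_dup27887 and B4_dup16961 were no longer called in either clone, nor ID_B1_dup109324 and ID_B1_dup100230 in sg6 (adjusted p 0.0551 to 0.0775). The same calls were lost with no filter on low counts (adjusted p 0.0620 to 0.172), and that of ID_B1_dup109324 in sg6 also with only the 2 groups compared (adjusted p = 0.0530).

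**Figure D4:**
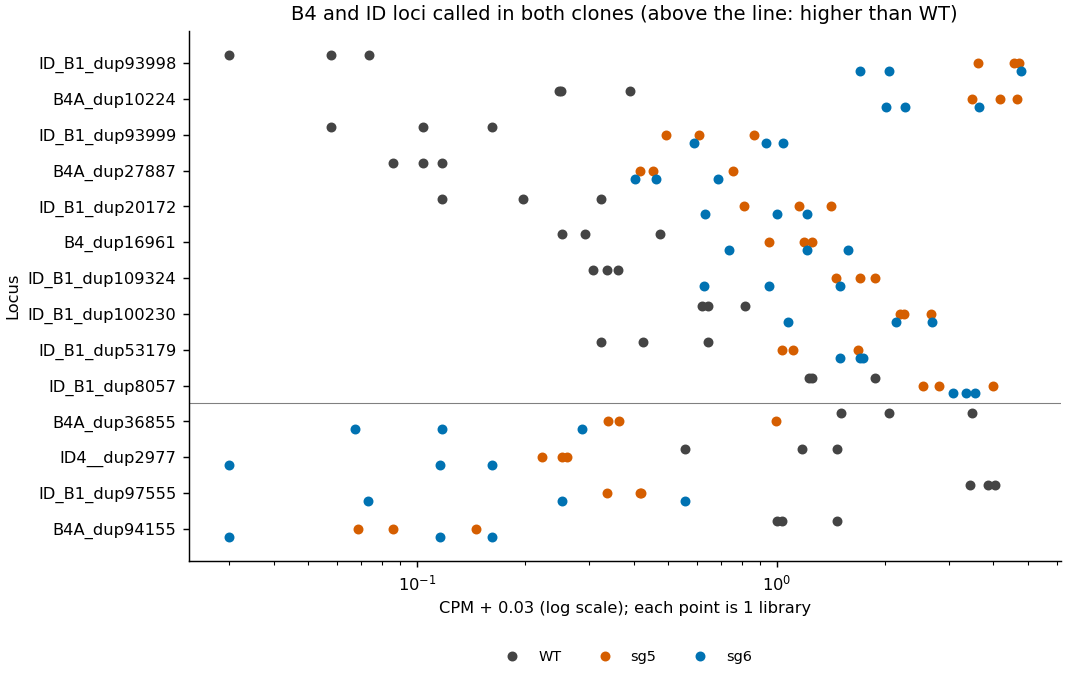
Level of the 14 B4 and ID loci called in both clones in CPM plus 0.03 on a logarithmic x axis, with 1 row per locus and 1 point per library. In the 10 rows above the line every KO library lies to the right of the WT libraries, and in the 4 rows below it every KO library lies to their left.

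The loci that fell in both clones were read in all WT libraries and reached few reads in the KO clones. The low-count filter shaped this, since a locus with few KO reads is kept only through its WT reads. With at least 10 counts in every library, 0 loci were called lower in both clones. B4A_dup94155 had 23, 39 and 35 reads in WT, 1, 1 and 3 in sg5, and 2, 0 and 3 in sg6. Its log2 fold change was −3.91 (SE 0.65, adjusted p = 0.00327) in sg5 and −3.94 (SE 0.65, adjusted p = 0.00340) in sg6. ID_B1_dup97555 had 78, 104 and 144 reads in WT, 8, 7 and 10 in sg5, and 1, 6 and 12 in sg6, so it was 10.3-fold lower in sg5 (adjusted p = 0.000801) and 14.1-fold lower in sg6 (adjusted p = 0.000414). The calls of both loci stayed in each of the 9 fits without 1 library.

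ID4__dup2977 was the single ID family copy that was called in both clones. It had 12, 39 and 41 reads in WT, 5, 4 and 6 in sg5, and 2, 0 and 3 in sg6. The log2 fold change was −2.25 (SE 0.58, adjusted p = 0.0458) in sg5 and −3.82 (SE 0.68, adjusted p = 0.00589) in sg6, and the sg5 call was lost (0.0536 to 0.263) without WT replicate 2 or 3, any 1 sg5 replicate or sg6 replicate 3. B4A_dup36855 had 46, 40 and 124 reads in WT, 25, 6 and 8 in sg5, and 6, 1 and 2 in sg6. WT replicate 3 and sg5 replicate 1 stood above the other libraries of their groups. The groups did not overlap, which the rule for naming required. The log2 fold change was −2.08 (SE 0.52, adjusted p = 0.0398) in sg5 and −4.17 (SE 0.63, adjusted p = 0.00176) in sg6, and the sg5 call was lost (0.0588 to 0.202) without WT replicate 1 or 3, sg5 replicate 2 or 3, or sg6 replicate 3. With adjustment over TE loci alone, the sg5 calls of ID4__dup2977 (adjusted p = 0.103) and B4A_dup36855 (adjusted p = 0.0914) were lost, and that of ID4__dup2977 also with no filter (adjusted p = 0.0873).

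Some copies had reads in WT and 0 reads in a whole clone. The following were picked after their values were seen, and the low-count filter kept them only through the lines in which they were read. In sg5, 4 of the 22 lower loci had 0 reads in all 3 libraries: RSINE1_dup97644 with 11, 12 and 18 reads in WT, ID_B1_dup407 with 5, 19 and 14, ID_dup5681 with 10, 12 and 15, and B4_dup30142 with 9, 11 and 13. Taking 3 reads over the sg5 libraries as the limit that a count of 0 allows, they were at least 11.1-fold, 10.3-fold, 10.0-fold and 8.94-fold lower. The lower ends of the exact 95% intervals, which also carry the counting error of the WT reads, were 8.63, 7.97, 7.75 and 6.87. In sg6, ID_B1_dup50559 and ID4__dup13171 had 0 reads in all libraries and were at least 12.7-fold and 9.90-fold lower, with lower ends of the exact 95% intervals at 9.93 and 7.63. ID_B1_dup407 was read in sg6, with 10, 8 and 12 reads, at a log2 fold change of −0.07 (adjusted p = 0.984), and ID4__dup13171 was read in sg5, with 7, 1 and 9 reads, at −0.81 (adjusted p = 0.671).

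The most highly read B4 family copies were all ID_B1. ID_B1_dup72029 held the most reads of any member, 14476 over the 9 libraries. It had 58.2, 59.6 and 58.6 CPM in WT, 61.3, 76.6 and 71.5 CPM in sg5, and 59.6, 62.3 and 68.0 CPM in sg6, and its log2 fold change was 0.25 (SE 0.14, adjusted p = 0.402) in sg5 and 0.11 (SE 0.14, adjusted p = 0.846) in sg6. ID_B1_dup96307 had 32.3 ± 4.98 CPM in WT, 40.3 ± 5.04 CPM in sg5 and 37.5 ± 6.09 CPM in sg6 (adjusted p = 0.390 and 0.713). ID_B1_dup53214 had 13.8 ± 1.94, 25.1 ± 9.53 and 21.8 ± 10.0 CPM (adjusted p = 0.163 and 0.410), with the wide spread in the clones coming from replicate 1 of each, at 36.1 CPM in sg5 and 32.8 CPM in sg6. None of these 3 copies was called in either clone, although ID_B1_dup53214 passed in sg5 with no filter on low counts (adjusted p = 0.0314).

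Of the 3 ID family copies of highest level, 2 were called in sg5 and 0 in sg6. ID2_dup123 had 9.37, 8.70 and 7.94 CPM in WT, 14.7, 17.3 and 17.1 CPM in sg5, and 12.7, 11.4 and 12.0 CPM in sg6, so all KO libraries exceeded WT. The log2 fold change was 0.92 (SE 0.17, adjusted p = 0.00598) in sg5, a call that stayed in all 9 fits without 1 library, and 0.47 (SE 0.17, adjusted p = 0.209) in sg6. ID_dup4883 had 7.27, 5.09 and 6.96 CPM in WT, 11.0, 11.8 and 12.8 CPM in sg5, and 9.13, 7.34 and 10.3 CPM in sg6, with a log2 fold change of 0.88 (SE 0.21, adjusted p = 0.0290) in sg5 and 0.47 (SE 0.21, adjusted p = 0.363) in sg6. Its sg5 call was lost without WT replicate 2 or 3 or sg5 replicate 2 or 3 (adjusted p 0.0647 to 0.166), with no filter (0.126) and with adjustment over TE loci alone (0.0708). ID_dup5759 had 8.89 ± 0.99 CPM in WT, 5.15 ± 0.22 CPM in sg5 and 5.94 ± 1.04 CPM in sg6, with a log2 fold change of −0.78 (SE 0.21, adjusted p = 0.0551) in sg5 and −0.58 (SE 0.21, adjusted p = 0.217) in sg6.

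Between the clones, 2 loci had a higher level in sg5 and 1 had a higher level in sg6, or 0.0339% and 0.0169% of the loci, beside 0.216% and 0.275% of all features. B4_dup44556 had 27, 49 and 79 reads in WT, 23, 13 and 22 in sg5, and 0, 2 and 0 in sg6. The ratio of WT to sg6 was 65.8 (95% exact interval of the counts 17.9 to 548), whereas the sg5 level was 2.11-fold below WT (adjusted p = 0.188). ID_B1_dup100042 had 225, 266 and 302 reads in WT, 670, 541 and 612 in sg5, and 374, 304 and 303 in sg6, so it was 2.83-fold higher in sg5 (adjusted p = 0.000301) and 1.45-fold in sg6 (adjusted p = 0.183). RSINE1_dup78320 had 20, 19 and 25 reads in WT, 7, 6 and 12 in sg5, and 26, 31 and 36 in sg6, and neither clone passed against WT (adjusted p = 0.156 and 0.363). Without 1 library the 2 higher loci became 6 in the fit that left out sg6 replicate 1 and 1 in the fits that left out WT replicate 1 or 2, any 1 sg5 replicate, or sg6 replicate 2 or 3, and RSINE1_dup78320 was called in none of the 9 fits that left out 1 library.

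Copies with neighbouring numbers within a subfamily tended to have similar fold changes. Among tested loci, 1171 pairs had consecutive numbers, and their log2 fold changes correlated with a Pearson r of 0.405 in sg5 and 0.393 in sg6, with the same sign in 65.8% and 64.6% of pairs. At a difference of 2 to 5 in number (1882 pairs) r was 0.324 and 0.283, at 6 to 20 (2198 pairs) 0.131 and 0.0806, at 21 to 100 (7127 pairs) 0.0847 and 0.0651, and at 101 to 1000 (74610 pairs) 0.0663 and 0.0582. These values are a description over loci, which share the same libraries and, in many pairs, loci, and are not independent. The meaning of the copy numbers, which may follow genome order, is not given in the sources used here, and whether consecutive copies lie in one transcript was not tested. Among the copies named above, ID_B1_dup93998 and ID_B1_dup93999 are consecutive and both rose. B4A_dup36856, the tested neighbour of B4A_dup36855, had log2 fold changes of −1.58 (adjusted p = 0.204) in sg5 and −2.17 (adjusted p = 0.109) in sg6. ID_B1_dup20173, next to ID_B1_dup20172, had 1.06 (adjusted p = 0.349) and 1.09 (adjusted p = 0.437), whereas ID_B1_dup20171 on its other side had 0.74 (adjusted p = 0.458) and 0.10 (adjusted p = 0.967). ID_B1_dup109323, next to ID_B1_dup109324, had 1.42 (adjusted p = 0.130) and 0.59 (adjusted p = 0.724).

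**Figure D5:**
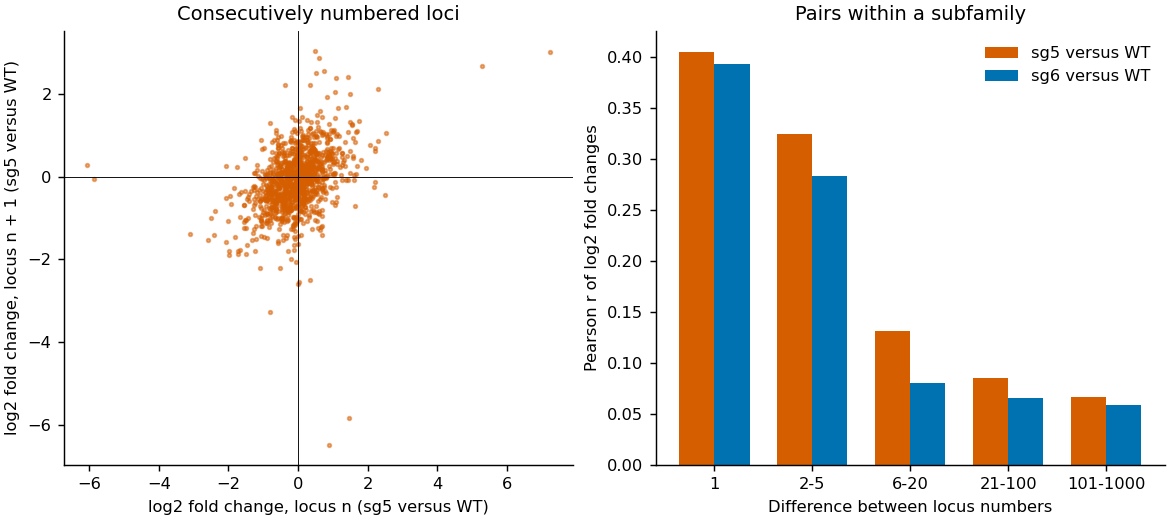
Left, log2 fold change (sg5 versus WT) of a locus on the x axis and of the next-numbered locus of its subfamily on the y axis, for 1171 pairs of tested loci. Right, Pearson r of the log2 fold changes of pairs by the difference between their numbers, for sg5 and sg6, which falls from 0.405 and 0.393 for consecutive numbers to 0.0663 and 0.0582 at differences of 101 to 1000.

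RNA polymerase III and its factors, and genes that silence SINEs and other repeats, were read from the same fit. All 38 genes of this list were tested, and in sg5 0 rose and 1 fell, whereas in sg6 0 rose and 0 fell, beside 5.64% of genes higher and 5.10% lower in sg5 and 3.56% and 4.03% in sg6. DESeq2 called 0 higher and 1 lower in sg5 and 0 and 0 in sg6, and an unadjusted p below 0.05 was reached by 5 higher and 3 lower genes in sg5 and by 2 and 2 in sg6. The median log2 fold change of the list was −0.05 in sg5 and −0.02 in sg6, against 0.08 and 0.04 over all genes. The gene that fell was Cbx1, which encodes the heterochromatin protein HP1β, with 127 CPM in WT, 77.8 CPM in sg5 and 88.9 CPM in sg6 on average, and with every KO library below WT. Its log2 fold change was −0.70 (SE 0.14, adjusted p = 0.00965) in sg5 and −0.51 (adjusted p = 0.0695) in sg6, and the sg5 call was lost (0.0514 to 0.107) without WT replicate 1 or 2, any 1 sg5 replicate or sg6 replicate 3. The sg6 value passed with TMM factors from genes alone (adjusted p = 0.0245) and with at least 10 counts in every library (adjusted p = 0.0212), and with no filter the sg5 call was lost (adjusted p = 0.134).

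Among the polymerase III genes, Polr3a, which encodes the largest subunit, had 16.0 CPM in WT, 19.6 CPM in sg5 and 19.8 CPM in sg6 (adjusted p = 0.397 and 0.495). Brf1, a subunit of the initiation factor TFIIIB, had 16.2, 20.9 and 21.4 CPM (adjusted p = 0.289 and 0.328), and Gtf3c1, the largest subunit of TFIIIC, 47.8, 63.0 and 50.4 CPM (adjusted p = 0.276 and 0.926). Maf1, the repressor of RNA polymerase III, had 89.4, 74.4 and 89.7 CPM (adjusted p = 0.317 and 0.993). Among the silencing genes, Setdb1, an H3K9 methyltransferase, had 41.6, 40.3 and 39.0 CPM (adjusted p = 0.920 and 0.876), Trim28, the KRAB zinc finger corepressor, 161, 168 and 152 CPM (adjusted p = 0.909 and 0.924), and Daxx, the partner of ATRX, 13.6, 13.7 and 12.8 CPM (adjusted p = 0.990 and 0.908). Among genes not given above, Polr3k had a log2 fold change of 0.51 in sg5 (adjusted p = 0.0704) and Dnmt1 −0.67 (adjusted p = 0.202). Every KO library lay above every WT library for Polr3a, Polr3d, Polr3f and Brf1, and below for Cbx1, beside 4.48% and 5.56% of all features. Apart from Cbx1, all genes named in this paragraph missed the threshold in both clones. Over the list of 38 genes, 16 log2 fold changes were positive in sg5 and 18 in sg6.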

How the data were processed

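RNA of WT, sg5 and sg6 cells was sequenced after rRNA depletion (9 libraries, 3 groups of 3, from the sample labels). According to the sources used here, the authors aligned reads to mm10 with STAR 2.27.10a, keeping multiply aligned reads, and TElocal counted reads per gene and TE locus. The deposited values are raw counts, without normalization. TElocal shares multiply aligned reads among copies, so a count can include reads of near-identical copies, and the strand setting is not given in the sources used here. The deposited polyA table holds genes alone and was not used here. Of 24100 Entrez identifiers, 24045 matched a gene symbol.

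Counts were tested with edgeR 4.0.16 in R 4.3.3: filterByExpr with its defaults (min.count 10, min.total.count 15, large.n 10, min.prop 0.7), TMM scaling, and the quasi-likelihood test in a single fit of 9 libraries, with Benjamini-Hochberg adjustment over all 56086 genes and TE loci tested and a threshold of 0.05. Counts summed over every locus of a subfamily or family were tested with the genes in the same way. Ratios to B1 were compared by exact permutation test. Intervals of ratios with 3 or fewer reads in a group are exact (95%), and they and the limits from 3 reads cover counting error only. Python 3.11.15, scipy 1.17.1 and matplotlib 3.10.9 were used. The edgeR locus and subfamily fits and the DESeq2 locus fit were tested on simulated data, for each clone against WT only. The family fit and the other alternatives were not.

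The loci named are, among those called in both clones with every KO library beyond every WT library, up to 8 in each direction by the smaller absolute log2 fold change, and the 3 of highest mean CPM per family. ID_B1_dup53179, ID_B1_dup8057, the loci called between the clones, the 6 loci with 0 reads in a clone and the neighbours of named loci are named outside this rule, after their values were seen. The polymerase III and silencing genes given with CPM or a log2 fold change were also picked outside a rule, with their values known. Members and lists were chosen with earlier results of these data known. Alternatives were median-of-ratios size factors, TMM factors from genes alone, DESeq2 1.42.0, 2 other filters, a replicate block, only the 2 groups compared, adjustment over TE loci, a log2 fold change beyond 1, sums over fewer loci, B2 as the reference, and fits that each left out 1 library. The replicate numbers come from the labels, which do not tie them to a shared batch or culture.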

Additional observations from a re-analysis of the deposited data

Results flagged for a closer look

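3 loci differed between the clones by the direct sg5 versus sg6 test in the fit of all libraries. B4_dup44556 was higher in sg5, at 0.820 ± 0.0846 CPM against 0.0248 ± 0.0430 CPM in sg6 (SD, n = 3), with a log2 fold change of 4.69 (SE 0.69, adjusted p = 0.00558 by edgeR) that rests on 2 reads in sg6. ID_B1_dup100042 was higher in sg5, at 26.5 ± 3.31 CPM against 13.6 ± 2.41 CPM, a log2 fold change of 0.97 (SE 0.18, adjusted p = 0.0291), and WT had 9.36 ± 0.821 CPM. RSINE1_dup78320 was lower in sg5, at 0.356 ± 0.0990 CPM against 1.28 ± 0.255 CPM, a log2 fold change of −1.83 (SE 0.37, adjusted p = 0.0483), with WT between them at 0.757 ± 0.102 CPM. The source of these differences was not tested, and a clone is a single line. No test for outlying values was applied to the loci, because each group has 3 libraries.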

How the results depend on the processing

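The loci named by the rule, including those of highest level, kept their direction against WT in every alternative that tested them, and the number of loci called changed. The direction of the loci named outside the rule is not given over the alternatives. Higher and lower loci in sg5 (36 and 22 of 5903 tested) numbered 65 and 50 of 142321 with no filter. With the strict filter of at least 10 counts in every library they numbered 10 and 7 of 898. Counts under different filters are therefore not comparable as shares, and the shares over all features under these settings are not given here. DESeq2 called 58 higher, and adjustment over TE loci alone left 11 and 9. In sg6 (15 and 12), no filter gave 43 and 35, the strict filter 4 and 0, DESeq2 24 higher, and TE loci alone 6 and 6. In both clones (10 and 4), no filter gave 18 and 17, the strict filter 2 and 0, DESeq2 18 higher, only the 2 groups compared 6 higher, and TE loci alone 4 and 2. Between the clones (2 and 1), no filter gave 9 and 9, the strict filter 1 higher, DESeq2 7 lower, TMM factors from genes alone 0 lower, only the 2 groups compared 0 and 0, TE loci alone 1 and 0, and a log2 fold change beyond 1 left 1 higher. Where the alternative's construction does not show it, the cause was not tested. Fits that left out 1 library gave 14 to 45 higher and 8 to 27 lower loci in sg5, 6 to 21 and 5 to 23 in sg6, 4 to 13 and 2 to 8 in both clones, and 1 to 6 and 0 to 1 between the clones.

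With the replicate number as a block, 59 higher and 36 lower loci were called in sg5, 23 and 18 in sg6, 17 and 8 in both clones, and 2 and 3 between the clones, and they included 36 of the 36 and 20 of the 22 loci called without the block in sg5 and 14 of 15 and 11 of 12 in sg6. The block left 0 of 8 subfamilies called in each comparison, and the B4 family sum at −0.19 (adjusted p = 0.303) in sg5 and −0.14 (adjusted p = 0.470) in sg6. Same-numbered libraries of different lines had correlated deviations from their group means with r of 0.0275 to 0.470 (mean 0.217, 9 pairs), and differently numbered ones −0.420 to 0.309 (mean −0.107, 18 pairs). All 9 same-numbered pairs were positive, and the highest r was that of replicate 1 of sg5 with replicate 1 of sg6. Because not every pair exceeded 0.1, the fit without the block was kept as the main one. That cutoff does not show that same-numbered libraries share nothing else, and whether they share a batch or culture was not tested.

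The family and subfamily sums missed the threshold in every alternative, and some near 0 changed sign. Over the fits without 1 library, the ID family sum ran from −0.253 to 0.014 in sg6, and between the clones the B4 family sum from −0.094 to 0.014 and the ID family sum from −0.090 to 0.0075. Subfamily sums ran from −0.164 to 0.053 for ID2 in sg5, and in sg6 from −0.264 to 0.015 for B4, −0.281 to 0.0080 for B4A, −0.250 to 0.0014 for RSINE1, −0.183 to 0.034 for ID2, −0.242 to 0.0070 for ID4 and −0.224 to 0.032 for ID4_. Between the clones they ran from −0.099 to 0.025 for B4, −0.105 to 0.025 for B4A, −0.042 to 0.041 for ID_B1, −0.097 to 0.011 for RSINE1, −0.050 to 0.025 for ID, −0.037 to 0.089 for ID2 and −0.063 to 0.026 for ID4. With only the loci tested alone, ID2 was 0.141 in sg5 and 0.047 in sg6, and between the clones ID_B1 was 0.018, ID 0.057 and the ID family 0.0016, and without the 10 highest loci ID2 between the clones was −0.019. The log2 ratio of B4 to B1 in sg6 was −0.0046 to 0.033 without 1 library. With B2 in place of B1, the ratios were higher by 0.05 and 0.03 for B4 and 0.07 and 0.05 for ID in sg5 and sg6 (exact permutation p 0.1 to 0.8). ID_dup5759 in sg5 passed with TMM factors from genes alone, DESeq2, the strict filter and the block (adjusted p 0.0255 to 0.0426), and ID_B1_dup53214 with no filter and the block (0.0314 and 0.0343). With the block, Cbx1 passed in sg6 (adjusted p = 0.0350). Low read numbers limit the single loci most, since the tested loci had as few as 36 reads over 9 libraries.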
